A study of Mus musculus with 9 samples.

Results

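This report follows 9 genes of transforming growth factor-β (TGF-β) and bone morphogenetic protein (BMP) signaling in 4T1 cells: the 3 TGF-β ligand genes Tgfb1, Tgfb2 and Tgfb3, and 6 genes that SMAD transcription factors are known to induce, namely Smad6, Smad7, Skil, Id1, Id2 and Id3. The 9 were named one by one, and all 9 were found among the 24421 genes of the deposited count table. Their transcripts were counted by poly(A) RNA-seq in 9 libraries of 4T1, a line of mouse mammary tumor cells known for lung metastasis. Of these, 3 came from 3D cultures grown on soft agar without extra palmitate, 3 from 3D cultures with 75 µM palmitate, and 3 from 2D cultures with 75 µM palmitate, all grown for 5 days. All cultures had medium with serum, which is itself a source of fatty acids, and those without extra palmitate received the albumin and ethanol carrier. A 2D culture without extra palmitate was not analysed here. All libraries are of 1 cell line, and no label says whether replicates came from separate cultures, so p-values measure only the spread between these libraries.

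TGF-β ligands are secreted in a latent form, held by latent TGF-β binding proteins, and are released by integrins, thrombospondin and proteases. The free ligand joins type II and type I receptor kinases, which phosphorylate SMAD2 and SMAD3. BMPs use related receptors that act on SMAD1, SMAD5 and SMAD9, and both branches share SMAD4. The products of Smad6 and Smad7 block the receptors, SKIL (SnoN) represses SMAD complexes on DNA, and the ID proteins, classical BMP targets, bind E proteins and keep them from DNA. In mammary carcinoma the pathway is known both for growth arrest and for epithelial to mesenchymal transition.

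Between 3D and 2D cultures with palmitate, 6 of the 9 genes were higher in 3D, 1 was lower and 2 did not pass the test. Of all genes tested, 34.5% were higher and 33.9% lower, so most genes differed. The largest increase was that of Id2, 3.84-fold, and the largest decrease was that of Tgfb2, 5.86-fold. With palmitate in 3D cultures, 0 of the 9 genes passed, compared to 2.19% of all genes tested. Levels are given as CPM, the counts of a gene relative to the library total after scaling by the trimmed mean of M values (TMM), and a gene passed when edgeR's quasi-likelihood test, fitted to all 9 libraries and 12575 genes, gave a Benjamini-Hochberg adjusted p under 0.05.

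Promoters of Tgfb1, Tgfb2, Id2 and Id3 are shown here, as RefSeq annotates them on GRCm38.p6, since their letters let the SMAD motifs be read directly. Between 3D and 2D, Tgfb1 and Tgfb2 went opposite ways, while Id2 was higher in 3D and Id3 did not pass. Tgfb1 and Tgfb2 are given as the 250 bases before the RefSeq start, 5′ to 3′ on the gene's strand. In GENCODE, the same window of Id3 lies wholly within its first exon, so only the 21 bases around each motif are given. For Id2, 161 bases of the window lie within an exon of another transcript, so only the first 89 are given. Those 89 bases lie outside exons but inside the span of Id2 in GENCODE, which runs from 25093799 to 25097140. Capitals mark CAGAC or its complement GTCTG, the core of the element bound by SMAD3 and SMAD4, and GGCGCC, a GC-rich element bound by the BMP SMADs.
Tgfb1, chr7:25686752-25687001, plus strand: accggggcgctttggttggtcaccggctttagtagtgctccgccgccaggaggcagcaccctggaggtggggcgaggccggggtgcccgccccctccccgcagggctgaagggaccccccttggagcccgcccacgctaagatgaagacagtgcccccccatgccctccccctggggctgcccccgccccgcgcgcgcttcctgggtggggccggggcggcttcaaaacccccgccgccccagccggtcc
Tgfb2, chr1:186705990-186706239, minus strand: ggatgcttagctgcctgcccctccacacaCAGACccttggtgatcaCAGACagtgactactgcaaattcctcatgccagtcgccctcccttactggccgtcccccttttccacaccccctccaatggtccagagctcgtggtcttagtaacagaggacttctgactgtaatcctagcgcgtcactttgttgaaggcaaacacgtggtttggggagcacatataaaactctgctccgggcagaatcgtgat
Id2, chr12:25096254-25096342, minus strand: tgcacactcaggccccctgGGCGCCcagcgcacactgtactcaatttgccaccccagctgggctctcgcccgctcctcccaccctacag
Id3, chr4:136143647-136143667, plus strand: ctcggcgtCAGACcagcctaa
Id3, chr4:136143746-136143766, plus strand: ccttggcgGTCTGttttgaat
The Tgfb2 window held CAGAC at 221 and 204 bases before the start, and the Id3 window held CAGAC at 167 bases and GTCTG at 68 bases before it. The Id2 window held 1 GGCGCC, at 231 bases before the start. The window of Tgfb1 held none of these letters. Of 32851 promoter windows of the same length, 42.2% held CAGAC or GTCTG and 9.59% held GGCGCC. The full palindrome GTCTAGAC, present in 0.167% of windows, was in none of the 4. The base composition also differed, with 75.2% GC in the window of Tgfb1 and 53.6% in that of Tgfb2. Smad6 also had an entry, with none of these motifs, and Tgfb3, Smad7, Skil and Id1 are named only. These matches describe letters, not binding.

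Total counts per library ranged from 6595514 to 31177756, with the smallest in replicate 3 of 3D cultures with palmitate. Replicates of a group differed by more than sampling noise, and those of 3D cultures with palmitate differed most, with a chi-square value per gene of 16.4 to 19.7 compared to 3.90 to 9.30 in the other groups. Epithelial markers were abundant, as the label of a mammary carcinoma line implies, and the summed level of 5 epithelial markers was at least 3080 CPM in every library. The 4 endothelial markers stayed under 1 CPM each, as did 3 of 4 leukocyte and 4 of 5 fibroblast markers. The exceptions were Cd68, at 6.18 to 27.8 CPM and higher in 2D, and Pdgfra, at 29.5 to 110 CPM and higher in 3D. The summed levels therefore moved with the culture form: 4396 to 4530 CPM in 3D and 3080 to 3295 CPM in 2D cultures with palmitate for the epithelial list, 8.42 to 11.4 and 24.3 to 27.8 CPM for the leukocyte list, and 91.7 to 110.4 and 29.6 to 31.2 CPM for the fibroblast list. Their part in the results was not tested. Adgre1, Cd3e, Lum and Col3a1 were at 0 in all libraries, while the other markers under 1 CPM had counts in some, up to 11 for Ptprc. In bulk RNA, fewer cells with a transcript and less transcript per cell cannot be told apart.

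**Figure D1:**
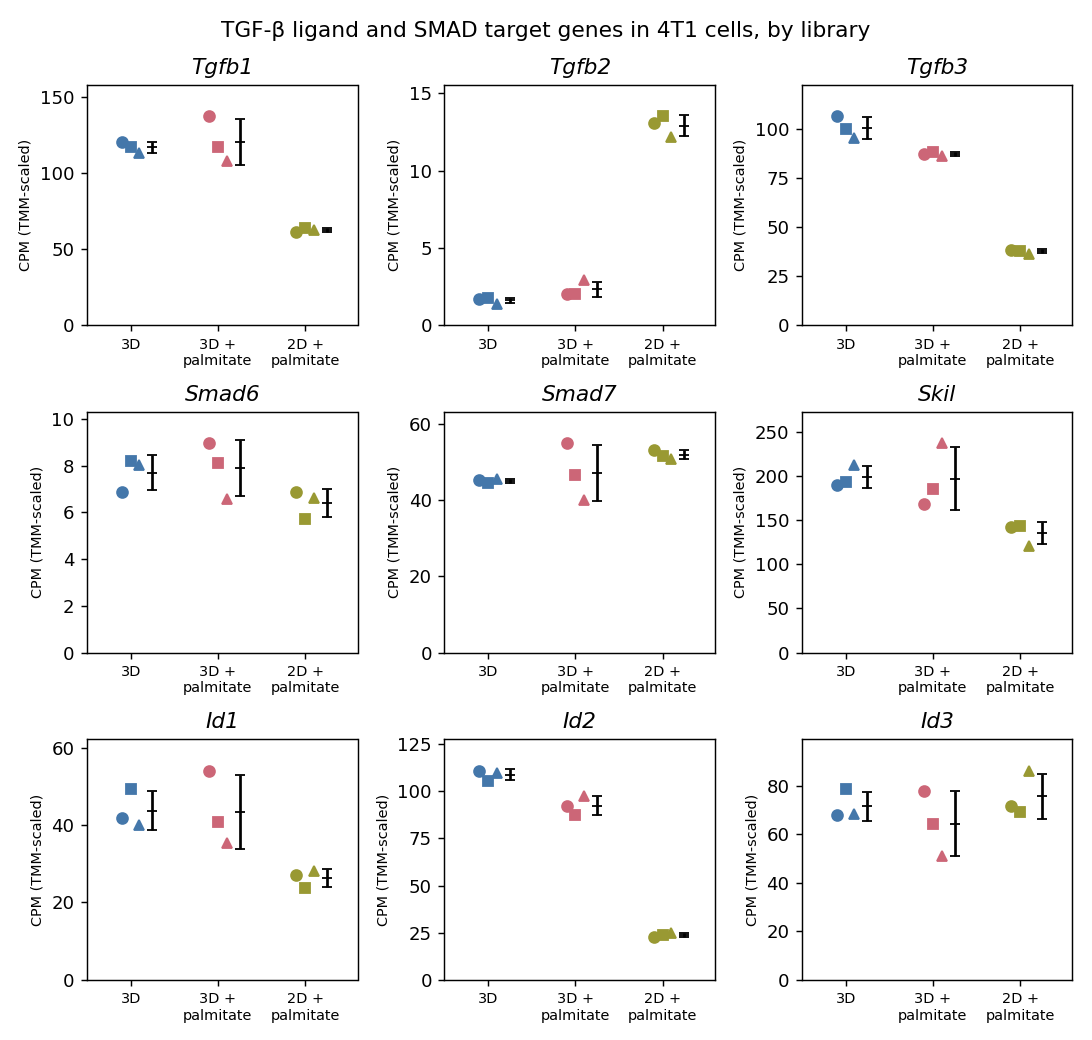
The level of each gene in CPM (vertical axis, from 0) in 3D cultures, 3D cultures with palmitate and 2D cultures with palmitate. Points are libraries (circle, square and triangle for replicates 1, 2 and 3), and bars are the mean and SD of 3 libraries. Tgfb1, Tgfb3, Skil, Id1 and Id2 lay higher in all 6 libraries of 3D than in the 3 of 2D, Tgfb2 lay lower, and Smad6, Smad7 and Id3 overlapped. Between the 3 libraries of 3D with palmitate and the 3 of 2D, 69.4% of all genes tested did not overlap. The share for all 6 libraries of 3D was not counted.

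The first comparison asks how growth in 3D differs from growth in 2D when palmitate is present in both. The 3 ligand genes did not move together: Tgfb1 and Tgfb3 were higher in 3D, while Tgfb2 was lower. In this comparison 68.3% of all genes tested passed, 34.5% higher and 33.9% lower, so the 7 of 9 called here, 6 of them higher, are read against a background in which most genes differed. At an unadjusted p under 0.05 the same count of 7 compared to 70.9% of all genes. With a log2 fold change of at least 0.5 in either direction as a further condition, 6 of 9 were called compared to 40.7% of all genes. The groups did not overlap for 6 of the 9, 5 higher and 1 lower in 3D, and for 69.4% of all genes, 34.6% higher and 34.8% lower. The median log2 fold change of the 9 was 0.53, and that of all genes tested was 0.01. The 9 were chosen with earlier results of these data known, so these shares only describe them.

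Tgfb1, on chromosome 7 of GRCm38 from 25687002 to 25705077, encodes the most widely expressed of the TGF-β ligands. It was at 137, 117 and 108 CPM in 3D cultures with palmitate and 61.2, 63.9 and 62.9 CPM in 2D cultures. Every 3D library was well above every 2D library. The mean of 121 ± 15.1 CPM (SD, n = 3) in 3D compared to 62.7 ± 1.37 CPM (SD, n = 3) in 2D gave a log2 fold change of 0.95 (standard error, SE, 0.0800, 95% interval 0.78 to 1.13, adjusted p = 8.91e-08 in edgeR). 3D cultures without palmitate had 121, 117 and 113 CPM, within the range of those with it.

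Tgfb3 encodes a ligand of the same receptors and lies on chromosome 12 from 86056745 to 86079041. It was at 87.0, 88.2 and 86.4 CPM in 3D cultures with palmitate and at 38.5, 38.0 and 36.5 CPM in 2D cultures. The replicates were close to each other in both groups, and the groups were far apart. On the log2 scale the fold change was 1.21 (SE 0.0644, 95% interval 1.07 to 1.35, adjusted p = 7.17e-10 in edgeR). In GENCODE, 7.6% of its exonic bases overlap the gene Gm48008 and 4.8% overlap Gm37804, both on the opposite strand, and the strand setting of the counting was not given in the sources used here.

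Tgfb2 encodes the ligand that depends most on the co-receptor betaglycan, and lies on chromosome 1 from 186622792 to 186705989. Here the order of the cultures turned around. It was at 2.06, 2.05 and 2.91 CPM in 3D cultures with palmitate, from 56, 27 and 19 counts, and at 13.1, 13.5 and 12.2 CPM in 2D cultures, from 158, 422 and 273 counts. All 2D libraries lay above all 3D libraries. This gave a log2 fold change of -2.55 (SE 0.144, 95% interval -2.86 to -2.24, adjusted p = 1.47e-09 in edgeR). Its overlap with the opposite strand gene Gm29491 covers 2.1% of its exonic bases.

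Compared per kilobase of the longest annotated transcript, Tgfb1 was the most abundant ligand in 2D cultures at 24.4 ± 0.531 CPM per kilobase (SD, n = 3), followed by Tgfb3 at 11.1 ± 0.298 and Tgfb2 at 2.52 ± 0.135. In 3D cultures with palmitate these levels were 46.9 ± 5.87, 25.8 ± 0.273 and 0.457 ± 0.0963 CPM per kilobase (SD, n = 3). Tgfb2 was thus the lowest in both cultures. The order of the other two in 3D depended on the length used. With the union of all exons, which is 5042 bases for Tgfb1 against 2573 for its longest transcript, Tgfb1 was at 23.9 ± 2.99 CPM per kilobase in 3D with palmitate and overlapped with Tgfb3.

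Among the 3 inhibitors of SMAD signaling, Skil and Smad6 were higher in 3D and Smad7 did not pass. Skil, which encodes the co-repressor SnoN, lies on chromosome 3 from 31095058 to 31122577. It was at 168, 185 and 237 CPM in 3D cultures with palmitate and at 142, 143 and 121 CPM in 2D cultures. The groups did not overlap, but the 3D replicates were spread more than the gap between the groups. Skil had a log2 fold change of 0.53 (SE 0.107, 95% interval 0.30 to 0.76, adjusted p = 0.000504 in edgeR). After each library's dependence on GC content and transcript length was taken out, the log2 fold change fell to 0.19 and still passed (adjusted p = 0.00470 in edgeR).

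Smad6 encodes the inhibitory SMAD that acts mainly on BMP receptors and lies on chromosome 9 from 63953076 to 64022059. Only Tgfb2 had a lower level of the 9 genes per kilobase of the longest transcript in 3D cultures with palmitate, where Smad6 was at 2.65 ± 0.403 CPM per kilobase (SD, n = 3). Its levels were 8.94, 8.13 and 6.59 CPM in 3D cultures with palmitate and 6.86, 5.70 and 6.59 CPM in 2D cultures, so the groups overlapped. In the test its log2 fold change was 0.38 (SE 0.135, 95% interval 0.09 to 0.67, adjusted p = 0.0219 in edgeR). This call was lost with DESeq2 (adjusted p = 0.0737 on all libraries and 0.128 on the 2 groups), with the share of the ribosomal RNA precursor Rn45s as a covariate (0.0641), without replicate 1 of 3D cultures with palmitate (0.161) and without replicate 2 of 2D cultures (0.125).

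Smad7 encodes the inhibitory SMAD that acts on TGF-β and BMP receptors alike and lies on chromosome 18 from 75367529 to 75395935. It was at 54.9, 46.6 and 40.1 CPM in 3D cultures with palmitate and at 53.2, 51.7 and 50.9 CPM in 2D cultures. The 2D values lay within the range of the 3D values. Its log2 fold change was -0.11 (SE 0.0883, 95% interval -0.30 to 0.08, adjusted p = 0.295 in edgeR), an interval that leaves room for a decrease to 0.814 of the 2D level. Smad7 was called lower without replicate 1 of 3D cultures with palmitate (log2 fold change -0.24, adjusted p = 0.0107) and in the fit adjusted for GC content and length (-0.29, adjusted p = 0.000304, both in edgeR).

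The 3 ID genes spanned the whole range, from a large increase of Id2 to a change of Id3 that did not pass. Id2, on chromosome 12 from 25093799 to 25097140, was at 92.2, 87.2 and 97.2 CPM in 3D cultures with palmitate and at 22.7, 23.9 and 24.95 CPM in 2D cultures. The groups were far apart and both were tight. Id2 had a log2 fold change of 1.94 (SE 0.0685, 95% interval 1.79 to 2.09, adjusted p = 9.00e-12 in edgeR), which put Id2 in place 77 of the 12575 genes by p.

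Id1, on chromosome 2 from 152736251 to 152737410, was at 54.1, 40.9 and 35.4 CPM in 3D cultures with palmitate and at 27.0, 23.7 and 28.2 CPM in 2D cultures. The 3D values were spread but all lay above those of 2D. Id1 had a log2 fold change of 0.77 (SE 0.132, 95% interval 0.49 to 1.05, adjusted p = 0.000112 in edgeR). Id3, on chromosome 4 from 136143497 to 136145755, was at 77.8, 64.3 and 51.1 CPM in 3D cultures with palmitate and at 71.5, 69.0 and 86.2 CPM in 2D cultures, with overlap. Its log2 fold change was -0.20 (SE 0.122, 95% interval -0.46 to 0.06, adjusted p = 0.159 in edgeR). Id3 was called lower without replicate 1 of 3D cultures with palmitate (log2 fold change -0.37, adjusted p = 0.00627) and without the filter on low counts (-0.23, adjusted p = 0.0133, both in edgeR).

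Per kilobase of the longest transcript, the ID genes stood apart in 2D cultures and had no clear order in 3D cultures with palmitate. In 2D cultures Id3 stood at 59.1 ± 7.28 CPM per kilobase (SD, n = 3), Id1 at 22.7 ± 2.01 and Id2 at 12.1 ± 0.561, with no overlap between them. In 3D cultures with palmitate Id3 was at 50.4 ± 10.4, Id2 at 46.8 ± 2.55 and Id1 at 37.4 ± 8.28 CPM per kilobase (SD, n = 3). There, the ranges of all 3 overlapped with each other. With the union of exons as the length, Id2 at 37.8, Id1 at 37.4 and Id3 at 36.0 CPM per kilobase were closer still in 3D, and the order in 2D stayed as given.

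**Figure D2:**
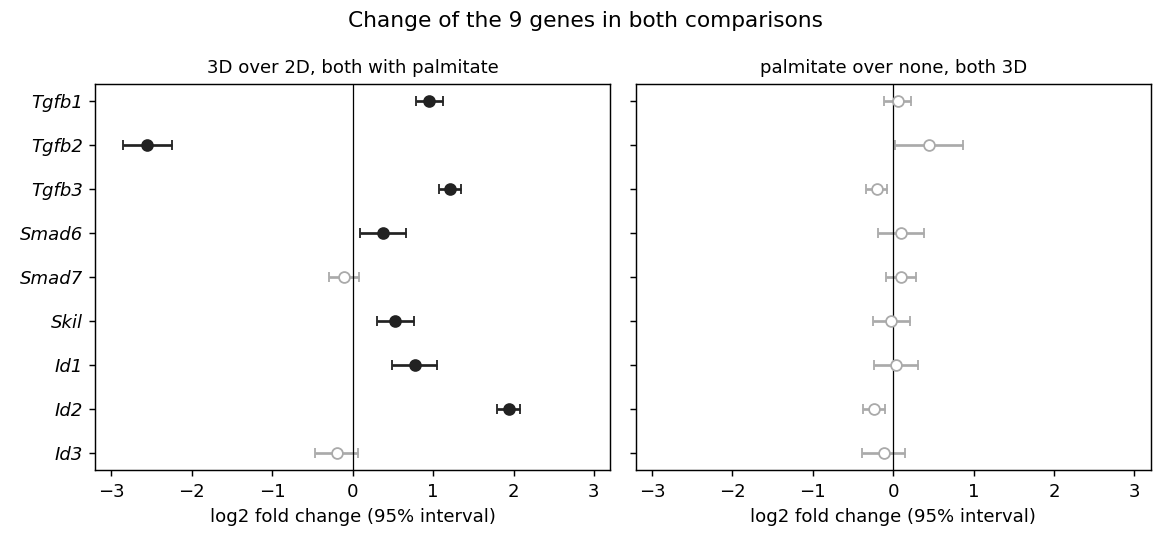
The log2 fold change of each gene (horizontal axis) with its 95% interval, for 3D over 2D cultures with palmitate and for 3D cultures with over without palmitate. Filled points passed an adjusted p under 0.05 in edgeR. They run from -2.55 for Tgfb2 to 1.94 for Id2 in the first comparison, and no point is filled in the second.

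The second comparison asks what extra palmitate changes in 3D cultures. Of the 9 genes 0 were called by edgeR's quasi-likelihood test, where 2.19% of all genes were, 1.38% higher and 0.811% lower, and 0.946% with a log2 fold change of at least 0.5. At the same time 3 of the 9 had an unadjusted p under 0.05, compared to 17.3% of all genes. DESeq2 called 1 of the 9, Id2, on all libraries, and 0 on the 2 groups. Over all genes it called 389 of 18522 and 176 of 17826 genes fitted. Without replicate 3 of 3D cultures with palmitate, the smallest library, edgeR called 2, Id2 and Tgfb3, both lower. That fit called 1901 of 12787 genes tested, compared to 275 of 12575 in the main fit. The groups did not overlap for 3 of the 9 genes, 1 higher and 2 lower with palmitate, and for 18.6% of all genes, 10.4% higher and 8.19% lower. Both comparisons share the 3D libraries with palmitate.

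The gene nearest to the threshold was Id2. It was at 111, 105 and 109.7 CPM without palmitate and at 92.2, 87.2 and 97.2 CPM with it. All values with palmitate were lower. Id2 had a log2 fold change of -0.24 (SE 0.0629, 95% interval -0.38 to -0.11, adjusted p = 0.0620 in edgeR, with a range of 0.00515 to 0.381 over the alternatives).

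Of the ligand genes, Tgfb3 was at 106, 99.8 and 95.2 CPM without palmitate and at 87.0, 88.2 and 86.4 CPM with it, again with all values lower. Tgfb3 had a log2 fold change of -0.20 (SE 0.0615, 95% interval -0.34 to -0.07, adjusted p = 0.104 in edgeR, with a range of 0.0143 to 0.351 over the alternatives). Tgfb2 was at 1.70, 1.74 and 1.41 CPM without and at 2.06, 2.05 and 2.91 CPM with palmitate, all of them higher. For Tgfb2 the log2 fold change of 0.44 had a 95% interval of 0.02 to 0.86 and an adjusted p of 0.267 in edgeR, and rested on 26 to 36 counts per library without palmitate. At these counts the size of the difference was poorly determined.

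The other 6 genes overlapped between 3D cultures with and without palmitate. Tgfb1 had a log2 fold change of 0.05 (95% interval -0.11 to 0.22, adjusted p = 0.781 in edgeR), which allows at most a 1.17-fold increase. Skil was at 189, 193 and 212 CPM without palmitate, inside the range with it, and its log2 fold change was -0.02 (95% interval -0.25 to 0.21). For Smad6, at 6.85, 8.21 and 8.03 CPM without palmitate, the interval was -0.19 to 0.38. For Smad7, at 45.2, 44.4 and 45.6 CPM without palmitate, it was -0.10 to 0.29. Id1 was at 41.8, 49.4 and 39.9 CPM without palmitate, with an interval of -0.24 to 0.31, and Id3 at 68.1, 78.5 and 68.2 CPM, with an interval of -0.38 to 0.14. These intervals leave room for changes of up to 1.30-fold in Smad6 and 1.24-fold in Id1, and for a decrease of Id3 to 0.767 of its level without palmitate.

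The 3D cultures without palmitate can also be set beside the 2D cultures, which differ from them in both culture form and palmitate, so the 2 factors cannot be told apart. Tgfb1, Tgfb3, Skil, Id1 and Id2 were higher in all 6 libraries of 3D than in the 3 of 2D, and Tgfb2 was lower in all 6. The share of all genes with such a gap was not counted for the 6 libraries. Between 3D cultures with palmitate alone and 2D cultures, groups did not overlap for 69.4% of all genes. Id2 was at 109 ± 2.95 CPM (SD, n = 3) in 3D without palmitate and 23.9 ± 1.11 CPM (SD, n = 3) in 2D. The SD was larger in 3D cultures with palmitate than without it for all of the 9 genes but Tgfb3. That of Smad7 was 7.39 compared to 0.596 CPM, and that of Tgfb3 was 0.923 compared to 5.58 CPM.

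Replicates 1 and 3 of 3D cultures with palmitate, the largest and the smallest library of the group, were the extremes for 6 of these 9 genes. Id1, Id3, Smad7, Smad6 and Tgfb1 were higher in replicate 1, by log2 ratios of 0.61, 0.60, 0.45, 0.44 and 0.35. Skil and Tgfb2 were higher in replicate 3, with log2 ratios of replicate 1 over replicate 3 of -0.49 and -0.48, while Id2 and Tgfb3 were close to 0 at -0.08 and 0.01. The first 5 have transcripts of 52.5% to 60.8% GC, and Skil, Tgfb2 and Id2 have 41.0%, 46.9% and 45.1%. Tgfb3 did not follow this order, since its transcript has 53.0% GC. Over all genes tested, the median log2 ratio of the same libraries went from -0.28 in the lowest of 5 equal classes of GC content to 0.32 in the highest. The part of base composition in the differences between groups was not tested beyond the fit adjusted for GC content and length, in which the log2 fold changes of 3D over 2D were 0.97 for Id1, 2.04 for Id2, 0.98 for Tgfb1, 1.14 for Tgfb3 and -2.79 for Tgfb2. In the same fit Smad6 was at 0.33, Skil moved from 0.53 to 0.19, Smad7 from -0.11 to -0.29 and Id3 from -0.20 to -0.02.

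**Figure D3:**
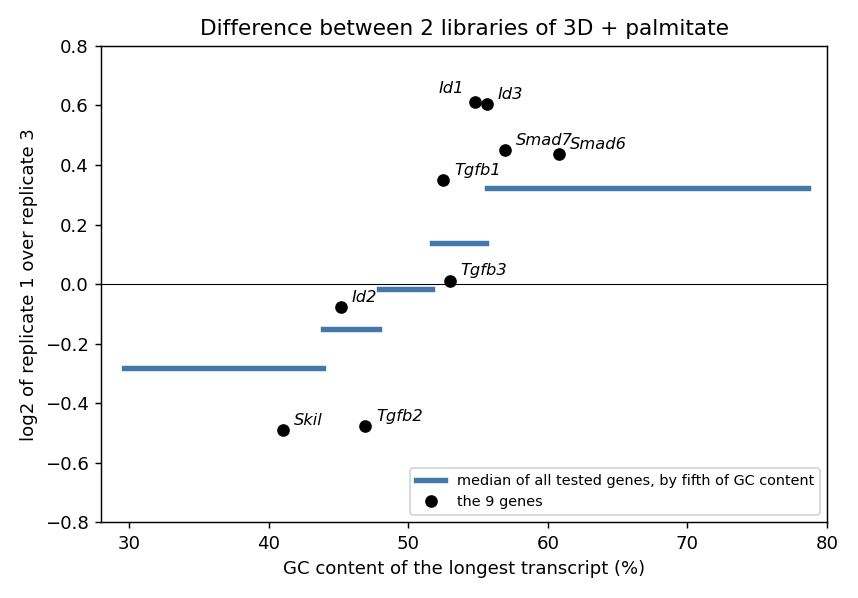
The log2 ratio of replicate 1 over replicate 3 of 3D cultures with palmitate (vertical axis) against the GC content of the longest transcript in percent (horizontal axis). Black points are the 9 genes and blue lines the median of all genes tested in each of 5 classes of GC content, which rises from -0.28 to 0.32.

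The rest of the pathway was taken from a list of 93 genes in 10 roles, of which 66 passed the filter on low counts. Between 3D and 2D cultures 55 of the 66 were called, 40 higher and 15 lower in 3D, or 83.3% compared to 68.3% of all genes (34.5% higher and 33.9% lower). Their median log2 fold change was 0.43, and that of all genes was 0.01. The list was chosen with earlier results of these data known. The shares here and by role therefore describe the listed genes and do not test the pathway. Receptors were mostly higher in 3D and extracellular antagonists were mixed.

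Of 9 tested genes for the storage and release of latent TGF-β, 7 were higher and 1 was lower in 3D, where 34.5% of all genes were higher and 33.9% lower. Ltbp3, a latent TGF-β binding protein needed for secretion of the ligand, was at 600.4 ± 62.8 CPM in 3D cultures with palmitate and 189 ± 8.72 CPM in 2D cultures (SD, n = 3). Its log2 fold change was 1.67, that of its relative Ltbp4 was 1.55, and that of Thbs1 (thrombospondin 1, an activator of latent TGF-β) was 0.80. Of the TGF-β receptors and co-receptors, 4 of 5 were higher and 0 were lower. Tgfbr3, which encodes betaglycan, rose most with a log2 fold change of 1.92, followed by the type I receptor Tgfbr1 with 1.35 and the type II receptor Tgfbr2 with 0.44.

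Of the 5 tested signal-transducing SMADs, 4 were higher, compared to 34.5% of all genes. Smad3, the main DNA-binding SMAD of the TGF-β branch, was at 242, 232 and 263 CPM in 3D cultures with palmitate and at 67.3, 70.6 and 65.1 CPM in 2D cultures. Its log2 fold change of 1.86 (SE 0.0668 and adjusted p = 1.11e-11 in edgeR) stood apart from Smad5 at 0.49 and Smad2 at 0.29. All 7 tested BMP and activin receptors were higher in 3D, compared to 34.5% of all genes, among them Bmpr2 with 0.83, Acvr2a with 0.70 and Acvr1b with 0.66. Of the 7, Bmpr1b had as few as 1 count in a library, and Acvr2b was close to the threshold (adjusted p = 0.0476 in edgeR). Of 8 tested genes listed as co-repressors and inhibitors, 2 were higher and 5 lower, where 34.5% of all genes were higher and 33.9% lower. Among the 2 higher, 1 is not an inhibitor. Ski, the close relative of Skil, had a log2 fold change of 0.69. The ubiquitin ligase gene Rnf111, whose product is known to promote signaling by degrading SMAD7, SKI and SnoN, had 0.41. Pmepa1, a TGF-β target whose product sequesters SMAD2 and SMAD3, had -0.74.

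Genes known to be induced by TGF-β did not follow one direction, with 8 of 14 higher and 4 lower. Of all genes tested, 34.5% were higher and 33.9% lower. Ctgf, which encodes a matricellular protein (now Ccn2) and is also induced by other pathways, was at 17.1, 18.3 and 14.5 CPM in 3D cultures with palmitate and at 282, 284 and 269 CPM in 2D cultures. That is a 16.4-fold decrease in 3D (log2 fold change -4.04, SE 0.0859 and adjusted p = 1.18e-13 in edgeR). In the same class, Pthlh (parathyroid hormone-related protein) and Cdkn1a (the cell cycle inhibitor p21) were higher, with log2 fold changes of 2.45 and 2.20.

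Of the BMP and activin ligands, only 5 of 14 were tested, 2 of them called higher and 2 lower, compared to 34.5% and 33.9% of all genes. Bmp2 had 1 count in 1 library and Bmp4 had 0 in all. The 2 activin subunit genes went opposite ways: Inhbb had a log2 fold change of 2.91 and Inhba of -1.76. Of 7 tested extracellular antagonists, 2 were higher and 3 lower, to be read against the same shares of all genes. Twsg1, a BMP-binding protein, had a log2 fold change of 1.00 and the BMP antagonist Nbl1, whose groups overlapped, of 0.72, while Fst, which encodes the activin-binding follistatin, had -2.41 and was at 1.38 ± 0.311 CPM in 3D with palmitate compared to 8.02 ± 0.715 CPM in 2D (SD, n = 3). Bmp8b, at a log2 fold change of 2.30, had as few as 1 count in a library.

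Among the other BMP targets 3 of 8 were tested. Id4, the fourth ID gene, was higher in 3D like Id1 and Id2. It was at 8.46, 7.06 and 9.34 CPM in 3D cultures with palmitate and at 0.414, 0.993 and 1.07 CPM in 2D cultures, from as few as 5 counts, and its log2 fold change was 3.17 (SE 0.224, adjusted p = 1.52e-08 in edgeR). Runx2 had 0.44, and Msx1, Msx2 and Dlx5 had 0 counts in all libraries. Of the E proteins to which ID proteins bind, Tcf12 and Tcf4 were higher, with log2 fold changes of 0.54 and 0.48, and Tcf3 did not pass at 0.00.

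**Figure D4:**
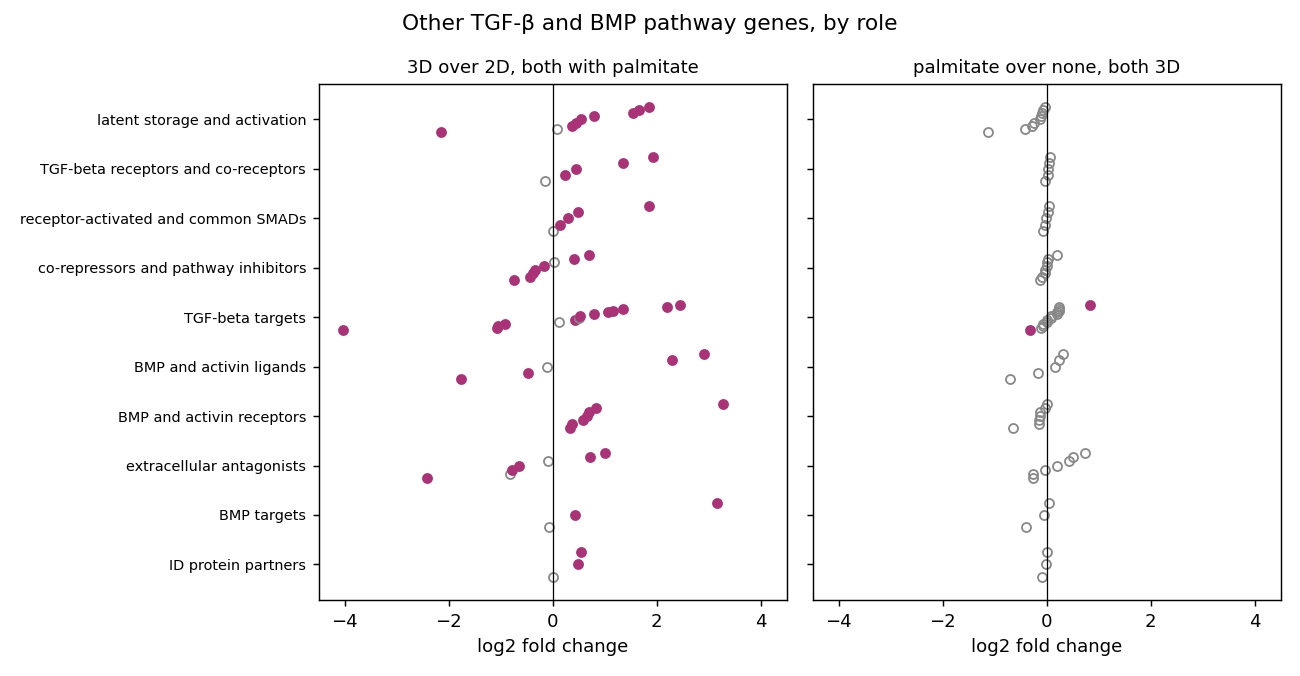
The log2 fold change (horizontal axis) of the 66 tested genes of the wider list, by role, for both comparisons, with filled points for genes that passed an adjusted p under 0.05 in edgeR. In 3D over 2D 55 points are filled and in palmitate over none 2 are, Ctgf at 0.83 and Fn1 at -0.31.

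With palmitate in 3D cultures, 2 of the 66 genes were called, 3.03% compared to 2.19% of all genes. Ctgf rose from 10.5, 8.59 and 9.28 CPM to 17.1, 18.3 and 14.5 CPM, with no overlap. On the log2 scale the change was 0.83 (SE 0.0991, adjusted p = 0.000823 in edgeR) and it kept its call under all 19 alternatives, and its level was far higher still in 2D cultures. Fn1, which encodes the matrix protein fibronectin, fell from 5952 ± 180 to 4790 ± 304 CPM (SD, n = 3), a log2 fold change of -0.31 (SE 0.0692, adjusted p = 0.0337 in edgeR). The call of Fn1 was lost in 9 of 19 alternatives, with adjusted p-values of up to 0.221.

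The genes with the most similar pattern were found by Pearson's r of log2 CPM over the 9 libraries, which share the gap between 3D and 2D and their differences in depth. For Id2 they were Mxd1, Il1r1 and Scara3, each with an r of 0.999, for Tgfb3 they were Zfp827, Rnf214 and Tspan1, and for Tgfb1 Ywhag, Ipo13 and Hoxa10. Those for Tgfb2 were Ftsj3, Bhlhe40 and Inhba, of which Bhlhe40, with an r of 0.998, is a TGF-β target and Inhba, with an r of 0.997, an activin subunit gene of the wider list. Skil had Suco, Ireb2 and Ankrd17, and Id1 had Cenpb, Zfp276 and Gas2l1. For Smad6 (H2-T10, Vrk3 and Pnpla6), Smad7 (Hps4, Bri3 and Necap2) and Id3 (Arfgap1, Aoc2 and Lyrm1), which overlapped between 3D and 2D, the highest r was 0.959, 0.976 and 0.986. Among the 9 genes themselves, Id2 and Tgfb3 had an r of 0.99 over the 9 libraries, Id2 and Tgfb2 of -0.99, and Id2 and Id3 of -0.35.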

How the data were processed

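Gene expression of 4T1 cells was measured by RNA-seq in 9 libraries, grouped by their titles into 3 conditions with 3 libraries each. The authors deposited raw counts per gene. Per the study's methods and the submitters' processing notes, 50 bp single-end reads of a stranded poly(A) kit were cleaned with fastq-mcf, checked with FastQC 0.11.9, aligned to GRCm38 with HISAT2 2.1.0 and counted with HTSeq-count, whose annotation and strand setting are not given in the sources used here.

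These counts went into edgeR 4.0.16 (R 4.3.3): filterByExpr, TMM scaling and a quasi-likelihood fit of condition to all libraries. Standard errors were taken as the log2 fold change over the root of F, and 95% intervals use the t distribution of the fit. Alternatives were RLE or library size scaling, no or a stricter count filter, the 2 groups alone, DESeq2 1.42.0, a replicate block, GC and length trends as offsets, the share of Rn45s (1.77% to 5.38% of counts) as a covariate, a minimum log2 fold change of 0.5 and each library left out. The procedure was tested on simulated data. Positions, lengths and GC content came from GENCODE M21 on GRCm38, with 23384 of 24421 genes matched by symbol and 678 by a synonym.

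The members and lists were chosen with earlier results of these data known. The genes named are the 9 members, in each role up to 3 called genes with the smallest p, and the 3 genes most correlated with each member. Bmp2, Bmp4, Msx1, Msx2, Dlx5, Itgb6, Itgb8, Smad4, Bmpr1b and Acvr2b were named after their values were seen. Total counts ranged from 6595514 to 31177756, the smallest library limits genes with few counts, and counting error does not include variation between cultures.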

Additional observations from a re-analysis of the deposited data

How the results depend on the processing

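Of the 9 genes, Tgfb1, Tgfb2, Tgfb3, Skil, Id1 and Id2 kept their direction and call in 3D over 2D cultures under all 19 alternatives. With 1 library left out, 6 to 8 of the 9 were called, and 50 to 56 of the wider list. Over all genes these fits called from 7977 of 12761 to 8866 of 12787. With palmitate, the count of 0 among the 9 was 1 without the filter on low counts and with DESeq2 on all libraries (Id2 in both), 2 with the GC and length trend removed (Id2 and Tgfb3), and 0 to 2 with 1 library left out. Over all genes, calls went from 275 of 12575 to 617 of 18522 without the filter and 928 of 12575 with the trend removed. DESeq2 on all libraries called 389 of 18522 genes fitted. Without replicate 3 of 3D cultures with palmitate, edgeR called 1901 of 12787. The 2 calls of the wider list with palmitate became 4 without the filter, 5 with DESeq2 on all libraries, 9 with the GC and length trend removed, and 1 with the 2 groups alone, with the replicate block, with Rn45s as a covariate or with a minimum log2 fold change of 0.5. Leaving out 1 library gave 1 to 12, the 12 without replicate 3 of 3D cultures with palmitate and the 1 without any of the other 5 libraries of 3D or replicate 1 of 2D. The causes were not tested.

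Changes with palmitate that were never called turned direction in some fits: Skil to 0.0415 with the GC and length trend removed and 0.0360 with Rn45s as a covariate, and Id1 to -0.0222 with the trend removed. With 1 library left out, log2 fold changes ranged from -0.17 to 0.0775 for Skil, -0.18 to 0.14 for Id1, -0.29 to 0.00239 for Id3, -0.0555 to 0.12 for Tgfb1, -0.0202 to 0.17 for Smad6 and -0.0395 to 0.18 for Smad7.

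Libraries with the same replicate number correlated, as deviations from their group means, by -0.24 to 0.15 (9 pairs), and those with other numbers by -0.17 to 0.28 (18 pairs), and the replicate numbers were therefore not used as pairs. The replicate block left 7 of the 9 genes called in 3D over 2D and 0 with palmitate, and lowered the calls with palmitate over all genes from 275 to 111. Without the filter these were 617 of 18522. With Rn45s as a covariate they were 44 and with the trend removed 928, both of 12575. Without replicate 3 of 3D cultures with palmitate they were 1901 of 12787. The share of higher calls with palmitate was 62.9%, 46.7% when scaled by library size only and 52.7% without the filter. In 3D over 2D it was 50.4%, and 42.4% with the trend removed.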
